A study of Stropharia rugosoannulata with 3 samples.

Results

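Contigs 12 and 15 of the *S. rugosoannulata* assembly carry many gene models with few or no counts in the mycelium. The models described here are those named for these contigs in the deposited expression tables, without the 20 models at each end of a contig and without the models SRUG_09977 to SRUG_09997 and SRUG_10127 to SRUG_10147, which surround 2 predicted core genes of indole clusters. This left 492 of the 11750 gene models, 298 of the 380 on contig 12 (SRUG_09893 to SRUG_10232) and 194 of the 234 on contig 15 (SRUG_10852 to SRUG_11045). They were set against contig 3, cut by 20 models at each end in the same way, with 1117 models (SRUG_02682 to SRUG_03798). An earlier tally of the same libraries had shown that models without a count were frequent on contigs 12 and 15 and least frequent on contig 3, so the shares below describe these contigs and are not independent evidence that they differ.

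RNA was sequenced from *S. rugosoannulata* mycelium cultivated on potato dextrose agar (PDA) at 25 °C, in 3 libraries of 1 condition. The strain label and the study's methods give Heinong No.1, a commercial cultivar, whereas the sample titles name S68, the monokaryotic isolate of it whose genome was assembled. No source says whether the libraries came from separate plates, so the spread between libraries may be technical. Library totals lay between 29678333 and 31831513 counts. Levels are FPKM, that is, fragments scaled by gene length and by library depth. For a model of median length, an FPKM of 1 stood for 43.7, 41.8 and 40.8 counts in libraries 1, 2 and 3. A model was called active if its mean FPKM reached 1 and low otherwise. In bulk mycelium, expression in fewer cells and less RNA per cell cannot be told apart. A count of 0 allows up to 3 fragments, or 6 counts where a fragment adds 2, which is 0.137, 0.144 and 0.147 FPKM at the median length, and this limit covers counting error only.

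Fungal chromosomes are not uniform in their activity. Genes for growth and housekeeping tend to lie in long expressed tracts, whereas repeat-rich regions packed as heterochromatin, and clusters of genes for secondary metabolites or for particular substrates or life stages, can be silent as a block in a given culture. The files used here hold neither repeats, chromatin marks nor coordinates, so place along a contig is given as the order of the gene models, and a model without counts on PDA may be silent in mycelium, used at another stage, or wrongly predicted; these cannot be told apart here. Except for SRUG_10902, the members carry no gene name or function in the sources used.

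Of the 492 members, 308 (62.6%) were active, against 1052 of the 1117 models of contig 3 (94.2%); over all 11750 gene models the share was 83.3%. Contig 12 had 182 active models of 298 (61.1%) and contig 15 had 126 of 194 (64.9%). At an FPKM of 1 in single libraries, the share on contig 12 was 58.7%, 62.8% and 59.1% in libraries 1, 2 and 3, that on contig 15 was 62.9%, 64.4% and 64.4%, and that on contig 3 was 93.1%, 94.3% and 94.1%. The ranges of contigs 12 and 15 lay about 30 percentage points under that of contig 3 and did not overlap with it. The members minus contig 3 gave −32.2 ± 1.14 percentage points (SD, n = 3 libraries), lower in 3 of 3 libraries. An exact permutation test that flips the sign of each library's difference gave a two-sided p = 0.25 (0.25 adjusted over the 5 differences computed), which is the smallest p that 3 libraries allow, so this design cannot reach a p of 0.05. The contigs were picked with a tally of these same libraries known. The common sign and the p-values against contig 3 and the other contigs are therefore not independent evidence of a difference. Between contigs 12 and 15 themselves contig 12 minus contig 15 gave −4.16, −1.68 and −5.37 percentage points in libraries 1, 2 and 3 (exact sign-flip permutation p = 0.25). This order depended on the models left out. Over whole contigs the share was 62.1% on contig 12 and 62.8% on contig 15. In library 2 the whole contig 12 was then the higher, with 63.2% against 62.8%.

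Among the 18 contigs that have models left after their ends are removed, contig 12 had the lowest share of active models and contig 15 the next lowest, in the mean and in each library. Contig 13 followed with 73.0%, and contig 3 had the highest share in the mean. All inner models of the other contigs together reached 86.6%, and the members minus these gave −24.5 ± 1.10 percentage points (SD, n = 3 libraries; exact sign-flip p = 0.25). The models left out of the middle of contig 12 were not the low ones, since 34 of these 42 were active, so leaving them out lowered the share of contig 12.

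**Figure D1:**
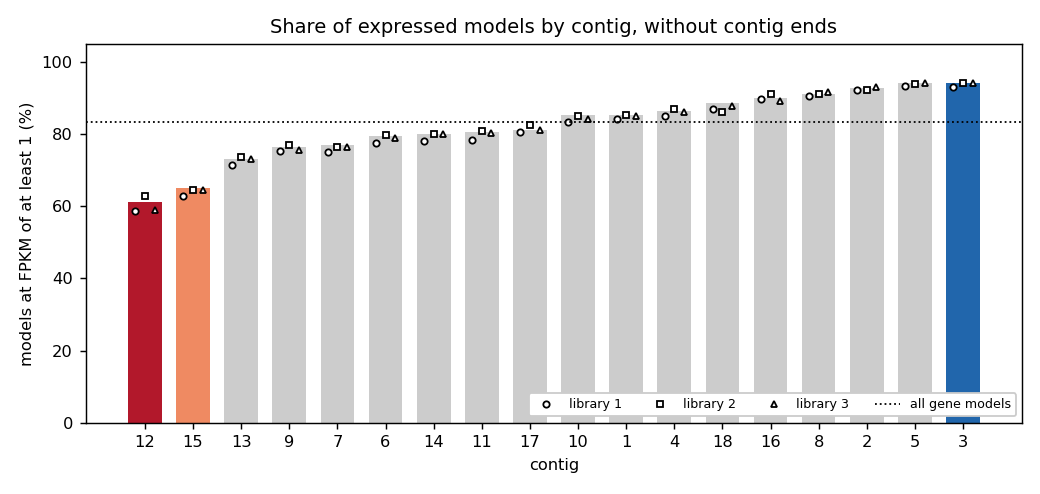
Share of gene models with an FPKM of at least 1 on each contig, in percent, for contig 12 (dark red), contig 15 (orange) and the other contigs in rising order up to contig 3 (blue), without the 20 models at each contig end and without the models left out of contig 12. Bars use the mean of the 3 libraries, symbols show the single libraries and the dotted line marks 83.3%, the share over all gene models. Contigs 12 (61.1%) and 15 (64.9%) lie below every other contig, and the symbols of each contig lie close to its bar.

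Most low members had no count. Of the 184 low members, 129 (70.1%) had no count in any library, 86 on contig 12 and 43 on contig 15, and 55 had some counts but a mean FPKM under 1. On contig 3, 36 of 65 low models had no count. Members without a count made up 26.2% of the members, against 3.22% of the models of contig 3 and 10.7% of all gene models. The call was mostly the same in the 3 libraries, as 288 members reached an FPKM of 1 in every library and 170 in none. The other 34 members (6.91%) changed sides between libraries, against 22 of the 1117 models of contig 3 (1.97%). Over all gene models 3.6% did so. Of the 22 members that reached an FPKM of 1 in a single library, 16 did so in library 2, 5 in library 3 and 1 in library 1.

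The models nearest the threshold on contig 12 were SRUG_10054 and SRUG_09946 above it, with means of 1.06 and 1.09 FPKM, and SRUG_10081 and SRUG_10045 below it, with 0.962 and 0.957. On contig 15 these were SRUG_10924 and SRUG_11041, with 1.09 and 1.11 FPKM, and SRUG_10906 and SRUG_11017, with 0.899 and 0.886. Leaving out 1 library put 7 of these 8 models on the other side of the threshold. SRUG_11041, for example, had 0.505, 2.73 and 0.102 FPKM in libraries 1, 2 and 3, and 0.303 FPKM without library 2.

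Low models were gathered in blocks, and the blocks were longer on contigs 12 and 15 than on contig 3. Low models made up 38.9% of the models on contig 12 and 35.1% on contig 15, but 5.82% on contig 3. The length of blocks rises with this share, and length beyond what the share gives was not tested. A stretch is a run of consecutively listed models on the same side of an FPKM of 1, and a model left out ends it. On contig 12, 72 of the 116 low models lay in 8 stretches of at least 5 low models, and on contig 15, 30 of 68 did so in 3 stretches. Contig 3, although it has far more models, had 4 such stretches with 26 of its 65 low models, and none was longer than 7 models. The longest low stretch held 18 models on contig 12 and 11 on contig 15. Taking each library alone, the longest low stretch was 18 models in every library on contig 12, 13, 12 and 11 models in libraries 1, 2 and 3 on contig 15, and 7 in every library on contig 3.

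The next model was low more often after a low model than after an active one. The model listed after a low model was itself low in 82 of 116 cases on contig 12 (70.7%), in 44 of 68 on contig 15 (64.7%) and in 32 of 65 on contig 3 (49.2%). After an active model it was low in 33 of 179 cases on contig 12 (18.4%), in 24 of 125 on contig 15 (19.2%) and in 33 of 1051 on contig 3 (3.14%). A single low model between active ones was still common, with 12 such cases on contig 12, 12 on contig 15 and 23 on contig 3. Of all models, 38.9%, 35.1% and 5.82% were low on contigs 12, 15 and 3. Set against this, the share after a low model was raised most on contig 3. These shares describe neighbours on the same contigs and were not tested.

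The block on contig 12 from SRUG_10152 to SRUG_10169 was the longest. None of its 18 models had a count in any library. Its edges were sharp on one side, as the model listed just before it, SRUG_10151, had 912, 378 and 520.3 FPKM in libraries 1, 2 and 3, while SRUG_10170, just after it, had 3.82, 5.15 and 5.48. The gene prediction numbers these models from 290 to 315 and skips 8 numbers on the way. If a skipped number is taken to end a stretch, the longest low stretch of contig 12 falls to 9 models, and that of contig 15 stays at 11.

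The other long low stretches had hardly more RNA. On contig 12, SRUG_10059 to SRUG_10068 held 10 low models, of which 8 had no count, and 12 counts in all over the 3 libraries. SRUG_09893 to SRUG_09901 held 9 models without a single count; it begins at the first member, and the model before it, left out as a contig end, had no count either. SRUG_10076 to SRUG_10084 also held 9 models, 6 of them without a count, but here SRUG_10081 reached 1.79 FPKM in library 2. On contig 15, SRUG_10962 to SRUG_10972 held 11 models, 9 of them without a count, and ended with SRUG_10972 at 0.227, 1.78 and 0.464 FPKM in libraries 1, 2 and 3. SRUG_10949 to SRUG_10958 held 10 models with 2 counts in all, both on SRUG_10949 in library 2. SRUG_10932 to SRUG_10940 held 9 models, 7 of them without a count and the highest, SRUG_10932, at a mean of 0.126 FPKM.

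The 3 longest low stretches of contig 15 lay close together. Between SRUG_10932 and SRUG_10972, a span picked after the levels were seen, 35 of 41 models were low and 27 had no count. The 6 active models in this span were all weak, with means from 1.32 to 5.82 FPKM (SRUG_10948). One of them, SRUG_10941, was the only member flanked on each side by at least 3 low models, and it had 2.30, 5.78 and 2.57 FPKM in libraries 1, 2 and 3. Directly after the span, SRUG_10973 to SRUG_10987 formed a stretch of 15 active models with a median of 23.4 FPKM.

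On contig 12 the low models fell into more places. In the span from SRUG_10059 to SRUG_10095, 29 of 37 models were low, 26 of them in 3 stretches, and the 8 active models among them reached at most 53.8 FPKM (SRUG_10087). In the span from SRUG_09893 to SRUG_09953, 39 of 61 were low, but the active models between them included SRUG_09933 at 191, 231 and 213 FPKM in libraries 1, 2 and 3. SRUG_09933 stands directly after the 7 low models SRUG_09926 to SRUG_09932, and SRUG_09925, with 206, 75.9 and 101 FPKM, directly before them. High and undetected models were thus immediate neighbours on contig 12. This was also seen on contig 15 outside its low span, where SRUG_10853, at 244, 144 and 164 FPKM, stood directly before SRUG_10854, without a count, and on contig 3, where SRUG_03328, at a mean of 169.7 FPKM, stood directly before SRUG_03329, at 0. These models were named after their values were seen. These spans too were picked after the levels were seen.

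Counted in complete consecutive windows of 20 models, those with fewer than 10 members left out, the share of active models ranged from 15% to 95% over the 15 windows of contig 12, from 10% to 90% over the 9 windows of contig 15, and from 55% to 100% over the 55 windows of contig 3. It was under 50% in 6 windows of contig 12, in 2 of contig 15 and in 0 of contig 3. In 33 windows of contig 3 every model was active, which was the case in 0 windows of contigs 12 and 15. The lowest windows were SRUG_10153 to SRUG_10172 on contig 12, with 3 active models of 20, and SRUG_10952 to SRUG_10971 on contig 15, with 2 of 20.

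**Figure D2:**
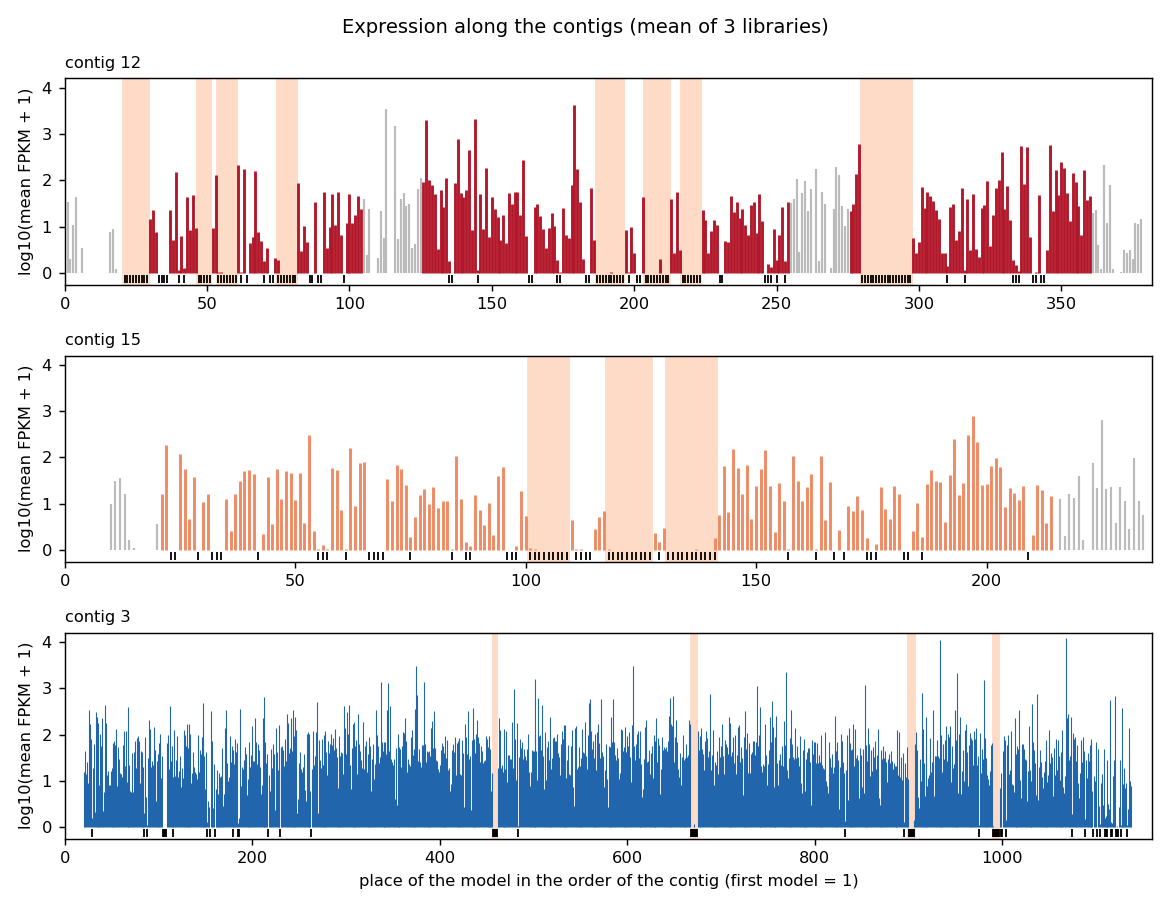
Mean level of each gene model as log10(mean FPKM + 1) against its place in the order of contig 12, contig 15 and contig 3 from above, with 1 vertical line per model and with models left out of contigs 12 and 15 in grey. Black ticks under the axis mark models under a mean FPKM of 1 and shading marks stretches of at least 5 of them, 8 on contig 12, 3 on contig 15 and 4 on contig 3. The stretches of contig 15 lie together in the middle of the contig, and those of contig 12 are spread over several places.

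Active models formed short runs on contigs 12 and 15, where a smaller share of models was active than on contig 3. The median run of active models was 4 models long on contig 12, 4 on contig 15 and 8 on contig 3, and runs of at least 10 held 41.2%, 38.9% and 93.1% of the active models of contigs 12, 15 and 3. The longest active stretch of contig 12 ran from SRUG_10018 to SRUG_10034 over 17 models, from 3.41 to 279.95 FPKM (SRUG_10033). Over the whole contig 12, with the models left out put back, the longest active stretch held 19 models. That of contig 15 ran from SRUG_11018 to SRUG_11039 over 22 models, from 3.13 to 802 FPKM (SRUG_11028). Contig 3 had an active stretch of 193 models.

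Pairs of low neighbours more often had a skipped gene prediction number between them than pairs of active ones, on contig 3 too, but few pairs were involved. On contig 12, 17 numbers were skipped between consecutively listed members, 14 of them beside at least 1 low model and 11 between a pair of low models. On contig 15 all 4 skipped numbers lay between low models. On contig 3, 13 were skipped, 5 of them beside a low model. This is 5.76, 2.07 and 1.16 skipped numbers per 100 pairs of neighbours on contigs 12, 15 and 3. A number was skipped in 6 of 82 (7.32%), 4 of 44 (9.09%) and 2 of 32 (6.25%) pairs of low models on contigs 12, 15 and 3. For pairs of active ones this was 2 of 146 (1.37%), 0 of 101 (0%) and 7 of 1018 (0.688%). Why a number was skipped is not stated, and this tally was chosen after the numbers were seen.

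**Figure D3:**
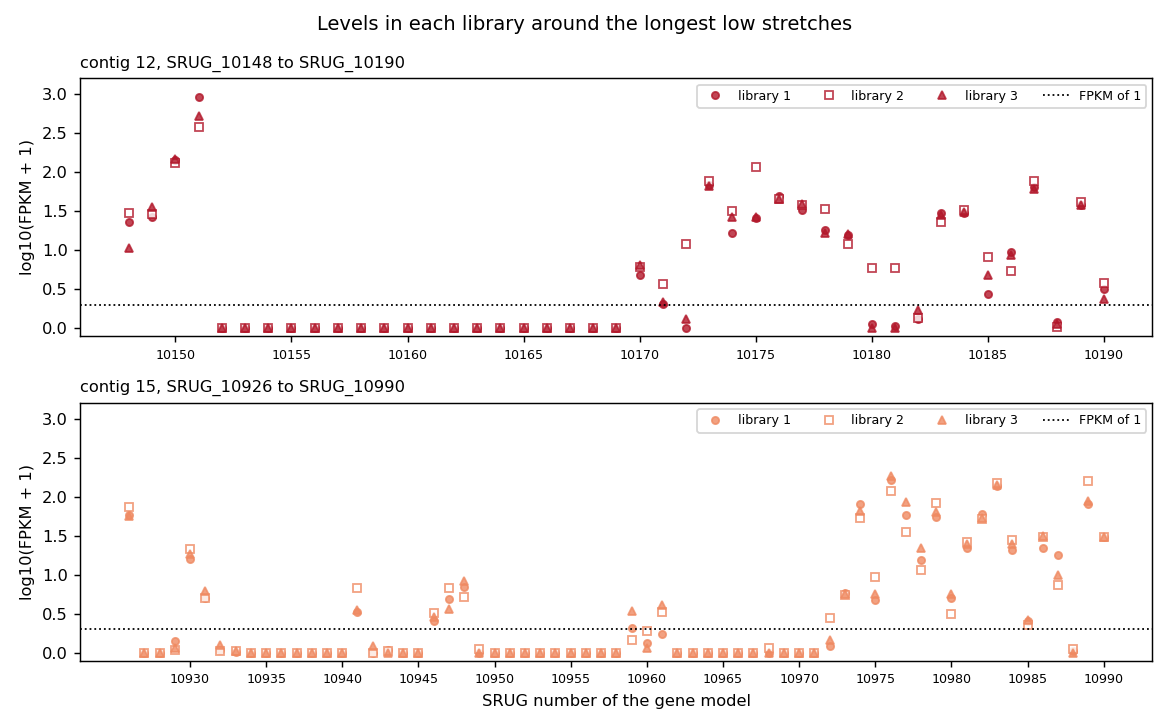
Level of each model as log10(FPKM + 1) in libraries 1, 2 and 3 by SRUG number, around the longest low stretch of contig 12 (above, dark red) and over the low span of contig 15 (below, orange), with a dotted line at an FPKM of 1. The 18 models from SRUG_10152 to SRUG_10169 sit at 0 in all 3 libraries beside SRUG_10151 at 378 to 912 FPKM, and the active models between SRUG_10932 and SRUG_10972 stay at means of at most 5.82 FPKM.

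The active members were also weaker than the active models of contig 3, most of all at the lower end. The median of the mean FPKM over active models was 23.7 on contig 12, 19.5 on contig 15 and 39.2 on contig 3. In libraries 1, 2 and 3 this median was 21.02, 25.4 and 23.8 FPKM on contig 12, 17.8, 20.1 and 20.5 on contig 15, and 36.8, 41.8 and 38.8 on contig 3. The values of contigs 12 and 15 were below those of contig 3 in each library, with a median on contig 3 that was 1.63 to 1.75 times that of contig 12 and 1.89 to 2.09 times that of contig 15. Among the 18 contigs, contig 15 had the lowest median of active models and contig 12 the next lowest. Contigs 9, 7 and 11, with 23.8, 24.3 and 24.4 FPKM, were close to contig 12, so its low median was not particular to it. Contig 3 lay near the upper end, below contig 5 alone (41.2 FPKM). Over all active gene models the median was 32.8 FPKM.

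The gap narrowed towards high levels. At the lower quartile, active models had 6.91 FPKM on contig 12, 6.79 on contig 15 and 17.1 on contig 3, a ratio of 2.48 and 2.52 between contig 3 and contigs 12 and 15. At the upper quartile the values were 54.6, 49.5 and 80.6 FPKM in the same order. At the 90% quantile, contig 12 had 162 FPKM and contig 15 had 102, against 165 on contig 3. Models between 1 and 10 FPKM made up 34.1% of the active models of contig 12, 31.0% of those of contig 15 and 14.1% of those of contig 3. Those at 100 FPKM or more made up 14.8%, 10.3% and 19.3%. Over all active gene models these shares were 19.2% and 17.2%. Models under 1 FPKM are left out of these figures on every contig. The levels and the share of active models are read from the same FPKM values, so the difference in levels was not shown to be separate from that in the share. Over all members, low ones included, the median was 5.44 FPKM, against 36.1 FPKM on contig 3.

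**Figure D4:**
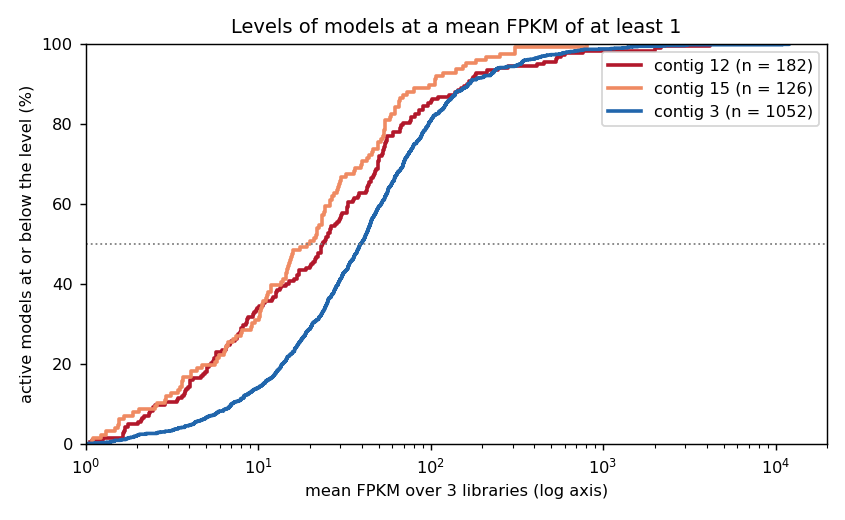
Cumulative share in percent of the active models of contig 12 (dark red), contig 15 (orange) and contig 3 (blue) at or below a given mean FPKM (log axis), with the dotted line at the median. The curves of contigs 12 and 15 lie left of that of contig 3 at the median, at 23.7 and 19.5 against 39.2 FPKM, and the curve of contig 12 lies close to that of contig 3 from 162 FPKM on.

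Active members with a single low neighbour had a lower median than those between active models. The 201 active members with an active model on each side had a median of 24.2 FPKM, the 86 with a single low neighbour had 14.0, and the 14 between a pair of low neighbours had 6.36. The falling order did not hold on each contig. On contig 12 the medians were 26.6, 12.5 and 20.4 FPKM with 0, 1 and 2 low neighbours (121, 46 and 10 models), and on contig 15 they were 23.4, 15.05 and 1.86 (80, 40 and 4 models). In each library the pooled members gave medians of 22.8, 26.3 and 23.8 FPKM for the members with active neighbours, 15.2, 15.3 and 14.8 with a single low neighbour, and 6.25, 6.98 and 5.15 between low neighbours, in libraries 1, 2 and 3. The quartiles of the groups overlapped widely, from 7.95 to 54.2 FPKM with active neighbours and from 5.603 to 43.6 with a single low one. On contig 3, the 984 active models between active neighbours had a median of 40.2 FPKM and the 66 with a single low neighbour had 32.7, so members with active neighbours on both sides were still below either group of contig 3.

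Gene length was compared through the counts. Counts per FPKM rise with the length of a model, and this measure was set relative to its median over the models that have it. For active models its median was 0.857 on contig 12, 0.984 on contig 15 and 0.994 on contig 3. It could be computed only for models with a mean count of at least 20, which 14 of the 184 low members had. The length of the undetected members is therefore not known here.

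The members took a smaller share of the RNA than of the gene models. They are 4.19% of all gene models and received 2.59%, 2.43% and 2.44% of the counts in libraries 1, 2 and 3, whereas contig 3, with 9.51% of the models, received 13.9%, 13.9% and 13.4%. Of the summed FPKM, the members held 3.05%, 2.70% and 2.71%. The 5 highest members of contig 12 carried 51.6%, 48.4% and 53.2% of the summed FPKM of the members on that contig. Those of contig 15 carried 43.2%, 24.8% and 31.2%, and the 5 highest models of contig 3 carried 28.9%, 24.96% and 26.4%. These 5 were taken from 298, 194 and 1117 models on contigs 12, 15 and 3. They are unlike parts of each contig, so these shares do not show where RNA was more concentrated. Of the counts of all members, the 5 highest of both contigs together carried 21.7%, 21.02% and 24.1%.

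Contigs 12 and 15 also held some of the more abundant transcripts of the mycelium. SRUG_10051 had 6201, 2963 and 3280 FPKM in libraries 1, 2 and 3 (4148 ± 1785, SD, n = 3) and ranked 13 among all gene models. SRUG_10016 had 1544, 2293 and 2649 FPKM (2162 ± 564, rank 25). SRUG_09999 had 1316, 1971 and 2717 FPKM (2001 ± 701, rank 27). SRUG_10051 was highest in library 1 and the other pair in library 3, with SRUG_10051 on top in every library, while SRUG_10016 and SRUG_09999 changed places in library 3 and differed by less than their spread. They were followed by SRUG_10010 with 476, 1173 and 636 FPKM (762 ± 366) and by SRUG_10151, the neighbour of the longest low stretch (604 ± 277). By counts per FPKM, all 5 were shorter than the median model, at 0.328 to 0.657 times its value. The highest model of contig 3, SRUG_03729, had 9782, 14733 and 11512 FPKM and ranked 2.

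On contig 15 no model reached a mean of 1000 FPKM. SRUG_11028 was the highest, with 1370.0, 402 and 635 FPKM in libraries 1, 2 and 3 (802 ± 505, SD, n = 3), and its level without library 1 was 519. SRUG_11027, listed directly before it, had 437, 195 and 291 FPKM (308 ± 122), and SRUG_11029, directly after it, had 231, 192 and 209 (211 ± 19.8). Together with SRUG_11024, at 233, 292 and 235 FPKM (253 ± 33.6), these made 4 of the 5 highest members of contig 15, all inside its longest active stretch. The fifth was SRUG_10884 with 433, 209 and 279.9 FPKM (308 ± 114). Among these, SRUG_11028, SRUG_11027, SRUG_11029 and SRUG_10884 were highest in library 1 and lowest in library 2, and SRUG_11024 was highest in library 2.

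A pair of members appears by name in the study. SRUG_10179, whose protein was set there against PsiD, the tryptophan decarboxylase of psilocybin synthesis in *Psilocybe cubensis*, and not taken to be that enzyme, had 14.6, 11.1 and 14.99 FPKM in libraries 1, 2 and 3. It lies in the run of 12 active models from SRUG_10170 to SRUG_10181 that follows the longest low stretch. The models that end this run, SRUG_10180 and SRUG_10181, were active through library 2 alone. SRUG_10902, drawn in the study among the manganese peroxidases, enzymes that oxidize manganese and through it phenolic parts of lignin, had 11.6, 10.5 and 9.19 FPKM. It stands 2 models after SRUG_10897 to SRUG_10900, 4 models without a count. SRUG_10179 and SRUG_10902 were below the median of active models on their contig and varied little between libraries.

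Active members varied more between libraries than active models of contig 3. The spread was taken on TMM-normalized CPM, that is, counts scaled by the library total times its TMM factor. The median coefficient of variation, over active models with a mean count of at least 20, was 0.280 on contig 12 (180 models), 0.228 on contig 15 (124) and 0.181 on contig 3 (1049). A coefficient above 0.5 was found for 18.9%, 12.9% and 6.10% of these models. Over the inner models of all contigs other than 12 and 15 it was found for 8.06%, and the median coefficient was 0.192. The coefficient also differed with the level. Models between 1 and 10 FPKM had a median coefficient of 0.358 among the members and 0.295 on contig 3, and models between 10 and 100 FPKM had 0.173 and 0.158. At 100 FPKM or more it was 0.314 for 40 members and 0.186 for 203 models of contig 3. Without library 2, the medians were 0.204 on contig 12, 0.123 on contig 15 and 0.125 on contig 3, and contig 15 no longer lay above contig 3. With a mean count of at least 100 required and all libraries kept, they were 0.248, 0.180 and 0.179, which also left contigs 15 and 3 close together.

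The most variable members were higher in library 2. SRUG_10209 had 26.7, 216 and 0.860 FPKM in libraries 1, 2 and 3, from 293, 2258 and 9 counts, and its mean of 81.2 FPKM was 13.8 without library 2. SRUG_10041 had 0.595, 5.69 and 1.15 FPKM, and was low without library 2, at 0.874. On contig 15, SRUG_10891 had 1.81, 12.9 and 4.84 FPKM and SRUG_10917 had 4.68, 22.8 and 6.85, with means of 6.51 and 11.4 that were 3.33 and 5.77 without library 2. Neighbours could share the pattern. SRUG_10208, listed directly before SRUG_10209 and named after its values were seen, had 144, 1130.4 and 359.5 FPKM, with a mean of 545 that was 252 without library 2. The adjacent models SRUG_10180 and SRUG_10181, also named after their values were seen, had 4.98 and 4.91 FPKM in library 2 and at most 0.138 in the other libraries, and without library 2 both would be low. How reads that map to several genes were assigned is not stated, and its part in this was not tested. Of the 304 active members measured, 21 (6.91%) were more than 2 times as high in library 2 as in both other libraries, against 13 (4.28%) for library 1 and 2 (0.658%) for library 3. On contig 3, 36 of 1049 (3.43%) were so raised in library 2, 6 in library 1 and 5 in library 3. Over the inner models of all contigs other than 12 and 15, 316 of 8986 (3.52%) were so raised in library 2. In libraries 1 and 3 this was 103 (1.15%) each. Lower in library 2 than in both other libraries by more than 2 times were 11 members (3.62%), against 206 models (2.29%) of those other contigs.

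**Figure D5:**
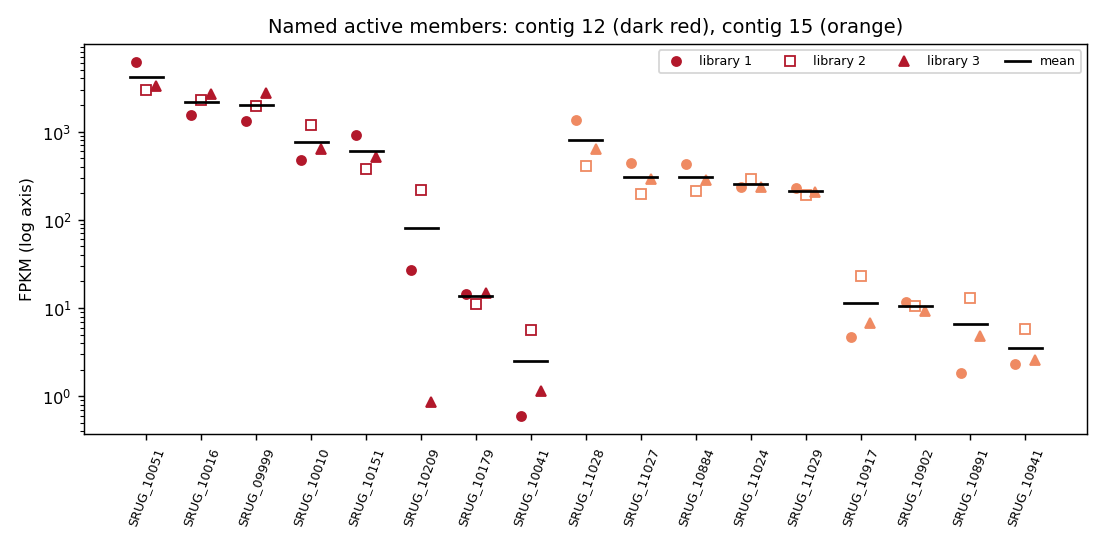
FPKM in libraries 1, 2 and 3 (symbols, log axis) and their mean (bar) of the highest, the most variable, the study's named and the isolated active members, contig 12 in dark red on the left and contig 15 in orange on the right. SRUG_10051 leads with a mean of 4148 FPKM, and SRUG_10209 spans 0.860 to 216 FPKM.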

How the data were processed

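Mycelial RNA was measured in 3 libraries of 1 condition. The authors deposited a table of whole-number counts per gene model, without normalization, and a table of FPKM; second copies of each differed in 0 cells and were not used further. Per the labels, fastp, HISAT2 and StringTie were used, with no versions or roles; the counter, its use of strand and its handling of multi-mapped reads are not stated. The study drew on mycelial RNA-seq in gene prediction, which may be these reads.

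Contig and model number were taken from the names in the tables, and models were ordered by SRUG number. Ends, active calls and stretches were set as described above. No differential test was possible with 1 condition. TMM factors came from edgeR 4.0.16 in R 4.3.3, with DESeq2 1.42.0 size factors as an alternative; all other steps ran in Python 3.11.15 (NumPy 2.4.6, pandas 2.3.3, and matplotlib 3.10.9 for plots). The layout and spread functions were tested on simulated data. The members, contig 3 and the lists were chosen with earlier results of these data known. Members named are those named in the study, the 5 highest, the edges of the 3 longest low stretches and of the longest active one, active models isolated by 3 low models on each side, the 2 most variable at a mean count of at least 100, and the 2 nearest the threshold on either side, per contig; others are said to have been named after their values were seen. Alternatives were other thresholds on FPKM or counts, TPM or CPM, whole contigs, other stretch lengths, another normalization or filter and each library left out. Genome sequence and coordinates were not used.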

Additional observations from a re-analysis of the deposited data

How the results depend on the processing

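No paired analysis was possible because the libraries belong to 1 condition, so no groups of samples share replicate numbers; differences between contigs were taken within each library. Of 212 values under alternatives, 170 stayed the same, 42 moved and 0 changed sign. Staying the same meant lying within the spread between libraries or within 1.5 times of the main value. For the share of the members minus that of contig 3 it meant keeping the sign, and only this difference could change sign. Contig 3 stayed above both contigs in the share (14 of 14 settings), in the median level (11 of 11) and in the longest active stretch (9 of 9), and below both in low models in stretches (11 of 11). In the coefficient of variation it was below both in 6 of 7 settings, the exception being without library 2, and contigs 15 and 3 were close (0.180 and 0.179) with a mean count of at least 100. At a mean FPKM of at least 5 the share was 50%, 52.1% and 88.0% on contigs 12, 15 and 3. Depth limits how far models near 6 counts can be told from models without RNA. At the median length this lies under the threshold, as an FPKM of 1 stood for 40.8 to 43.7 counts.

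For contigs 12, 15 and 3 in this order, the median level of active models was 33.0, 26.01 and 43.2 FPKM with active set at 5, 27.3, 22.4 and 45.1 in TPM, and 30.7, 28.6 and 52.7 in TMM CPM, which is not corrected for length. With active set at 0.1 it was 21.1 and 15.4 FPKM on contigs 12 and 15, and with an FPKM of 1 required in every library it was 22.1 on contig 15. Low models in stretches of at least 10 numbered 28 on contig 12 and 0 on contig 3, and in stretches of at least 3 they numbered 50 on contig 15. The longest low stretch of contig 15 was 25 models at a threshold of 5. The longest active stretch was 37 models on contig 12 at a threshold of 0.1 and 75 on contig 3 at 5. With skipped numbers ending a stretch, an alternative chosen after seeing the data, the longest low stretch of contig 12 was 9 and the longest active stretch of contig 3 was 109.

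The share of low models after a low one was, on contig 12, 73.0%, 68.9% and 69.1% at thresholds of 0.1, 0.5 and 5, on contig 15, 63.2%, 65.6% and 65.6%, and 66.7% over the whole contig, and on contig 3, 59.5% and 36.6% at 0.1 and 5. Leaving out each library in turn gave 69.6% to 71.2% on contig 12, 65.2% to 65.7% on contig 15 and 44.8% to 48.5% on contig 3. It gave a median coefficient of variation of 0.180 to 0.269, 0.123 to 0.226 and 0.125 to 0.179. The members' share of the summed FPKM was 2.82%, against 2.49% of the counts, and whole contigs 12 and 15 held 3.07% of the counts.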
